A study of Mus musculus with 14 samples.

Results

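The genes described here are 9 genes that pericytes and vascular smooth muscle cells express in the brain: *Pdgfrb*, *Rgs5*, *Kcnj8*, *Abcc9*, *Anpep*, *Vtn*, *Higd1b*, *Acta2* and *Tagln*. They were chosen by name as mural cell genes, out of 56748 genes counted in every library, and 8 of the 9 passed the filter on low counts that precedes the test. *Tagln* did not pass it. The question put to the data was whether the mural cell genes differed between the brains of *Rik*-null and WT pups.

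Pericytes are the cells embedded in the wall of capillaries, where they share a basement membrane with the endothelium. Smooth muscle cells take their place around arterioles and larger vessels, and the name mural cells covers both. In the brain, pericytes are known for their part in forming and maintaining the blood-brain barrier, and they are drawn to growing vessels when endothelial PDGF-B binds the receptor PDGFRβ on their surface.

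The measurements are RNA sequencing of brains of strain C57BL6/J pups on postnatal day 14. There were 14 libraries, each from 1 pup, 8 of them *Rik*-null and 6 WT. *Rik*-null pups, named RIK KO in the labels, were homozygous in the whole body for a spontaneous deletion in the first intron of *2310061I04Rik* (*Rik*), which arose in 1 embryonic stem cell clone during the making of *Traf7*-floxed mice and was then bred away from the floxed allele. WT pups were littermates without the deletion, and neither group was treated. The brain was cut along the midline and 1 side was sequenced, so the RNA of all cell types was pooled and fewer cells of a type cannot be told apart from less RNA per cell. Libraries are named by the numbers in their labels.

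*Rik* served as the check of the genotype labels, and it had 9.10 ± 0.968 CPM (counts scaled to library size; SD, n = 8) in *Rik*-null and 74.2 ± 4.79 (n = 6) in WT, with no overlap. Each library held 15183130 to 28012811 counts in *Rik*-null (median 20396468) and 18102343 to 30993890 in WT (median 27737932). By the labels, 7 of the 8 *Rik*-null pups but only 2 of the 6 WT pups were male. In 2 of the 6 WT libraries, WT 1 and WT 6, *Xist* and 4 Y-linked genes went against the labelled sex. The libraries also fell into 2 sets when clustered on all tested genes. Set 1 held *Rik*-null 1, 6, 7 and 8 with WT 1, 4, 5 and 6, and set 2 held *Rik*-null 2 to 5 with WT 2 and 3. What separates the sets is not named in the labels, and for the mural cell genes the results that turn on the sets or on sex are given both ways. All 9 genes had counts in every library, and so the tissue held mural cell RNA throughout.

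Of the 8 tested mural cell genes, 1 was higher in *Rik*-null than in WT brains (*Vtn*) and 0 were lower, by edgeR's quasi-likelihood test with a threshold of 0.05 on the p adjusted (Benjamini-Hochberg) over 18170 tested genes. Over all tested genes, 203 were called higher (1.12%) and 399 lower (2.2%). At an unadjusted p under 0.05, 1 of the 8 genes was lower (*Kcnj8*), against 10.3% of all tested genes, and DESeq2's Wald test called 1 of the 8 higher and 0 lower, against 2.92% and 3.34% of the genes it tested. The median log2 fold change of the 8 genes, *Rik*-null over WT, was -0.027, beside 0.002 over all tested genes, with 2 genes above 0 and 6 below. The genes fell into 3 kinds: *Vtn*, whose levels separated the genotypes; *Kcnj8*, whose levels leaned lower in *Rik*-null; and the others, whose levels overlapped broadly.

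**Figure D1:**
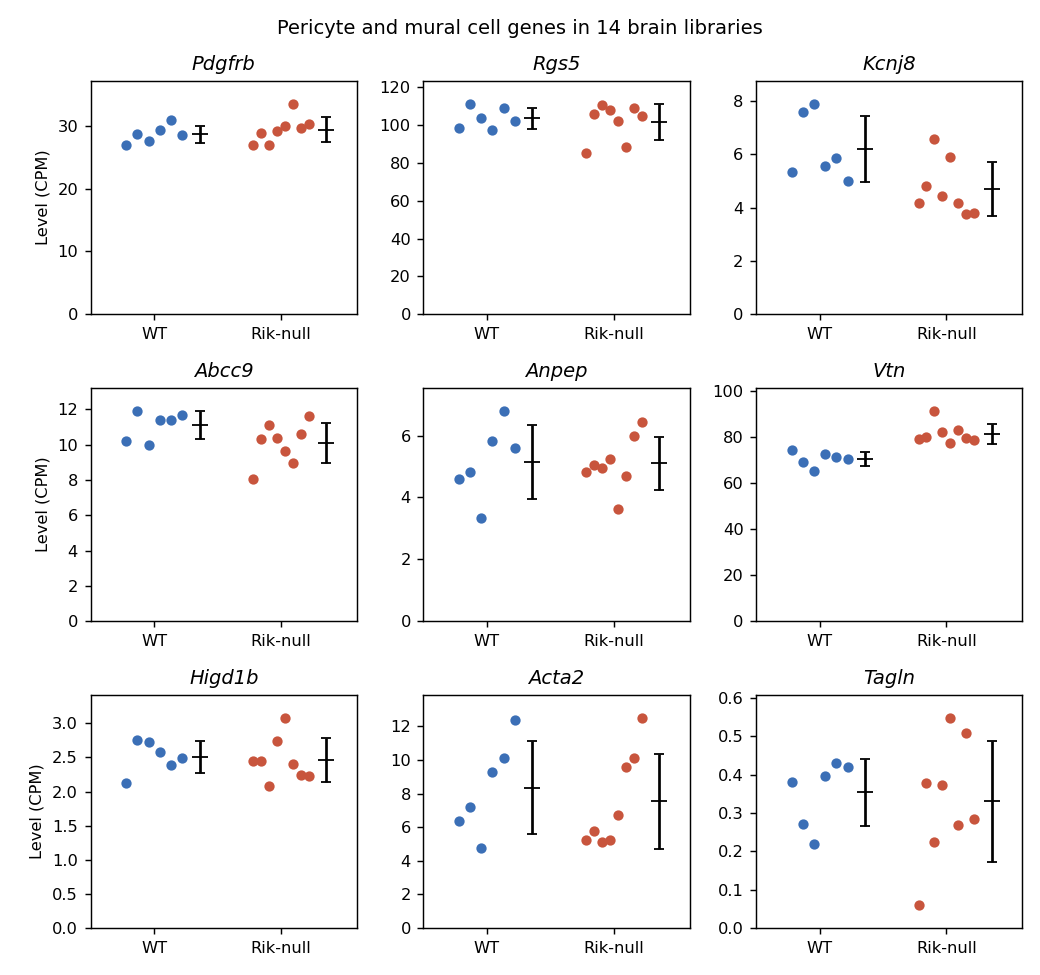
Level of each of the 9 genes in CPM (linear axes from 0) in the 6 WT libraries (blue) and the 8 *Rik*-null libraries (red), in label order; the black marks are the mean and SD of each genotype. *Vtn* is the gene whose 2 genotypes do not overlap, with 65.2 to 74.4 CPM in WT and 77.5 to 91.1 in *Rik*-null.

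**Figure D2:**
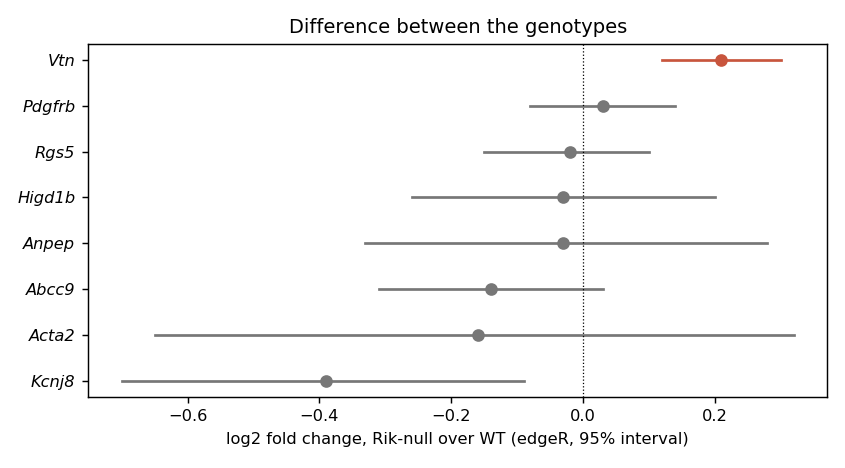
Log2 fold change, *Rik*-null over WT, of the 8 tested genes with its 95% interval from edgeR; red marks an adjusted p of at most 0.05. *Vtn* stands at 0.21, the intervals of *Vtn* and *Kcnj8* leave out 0, and that of *Acta2* is the widest at -0.65 to 0.32.

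*Vtn* on chromosome 11 encodes vitronectin, a secreted glycoprotein that binds integrins and plasminogen activator inhibitor; pericytes are its main source within the brain, while the vitronectin of blood plasma comes from the liver. Its level in WT libraries was 65.2 CPM at the lowest, 70.8 at the median and 74.4 at the highest. In *Rik*-null libraries it was 77.5 at the lowest, 79.8 at the median and 91.1 at the highest. Every *Rik*-null library thus stood above every WT library, which held in this direction for 0.517% of all tested genes. The means were 81.3 ± 4.33 CPM (SD, n = 8) in *Rik*-null and 70.4 ± 3.13 (n = 6) in WT. This was a 1.15-fold higher level in *Rik*-null (95% interval 1.08 to 1.23; log2 fold change 0.21, SE 0.043), with an edgeR adjusted p of 0.0142. A two-sided exact permutation test over the 3003 arrangements of the libraries gave p = 0.000333, the smallest it can give. That p restates the full separation of the groups and is not adjusted over the tested genes.

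The call of *Vtn* did not hold in all settings. Every *Rik*-null library stood above every WT library, so the direction within a set or a sex followed from that. The ranges within sets and sexes are therefore a description and no further check. Within set 1 *Rik*-null libraries had 78.4 to 82.8 CPM and WT libraries 70.2 to 74.4, and within set 2 they had 77.5 to 91.1 and 65.2 to 69.2. Taken alone, set 1 gave a log2 fold change of 0.15 (edgeR adjusted p = 0.239) and set 2 gave 0.30 (adjusted p = 0.00842). The ranges are also given by sex as read from the RNA. The only female *Rik*-null library had 77.5 CPM and the 4 female WT libraries 65.2 to 74.4, while the 7 male *Rik*-null libraries had 78.4 to 91.1 and the 2 male WT libraries 69.2 and 70.2. With sex as a second term the fold change of *Vtn* remained at 0.18 (labelled sex, edgeR adjusted p = 0.122) or 0.20 (sex by RNA, adjusted p = 0.116), and neither passed the threshold. These fits called 0.237% and 0.116% of tested genes higher. With 1 female *Rik*-null pup, sex and genotype cannot be fully told apart.

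**Figure D3:**
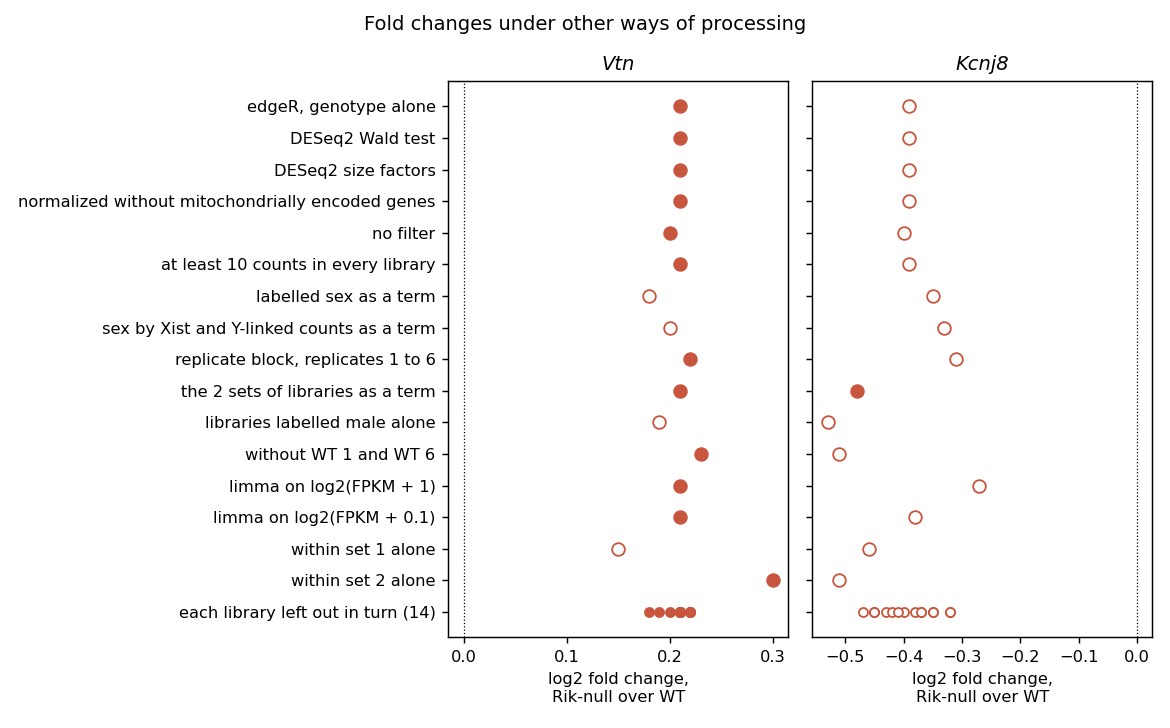
Log2 fold change, *Rik*-null over WT, of *Vtn* (left) and *Kcnj8* (right) under each way of processing, with filled points for an adjusted p of at most 0.05 and open points for a larger one; sets 1 and 2 are those of the clustering of libraries. *Vtn* ranges from 0.15 to 0.30 and is open in 4 settings, and *Kcnj8* ranges from -0.53 to -0.27 and is filled when the 2 sets are a term.

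The 250 bases before the *Vtn* start (RefSeq, GRCm38.p6, chr11:78498870-78499119, plus strand) are shown because *Vtn* is the gene that passed the test. Capitals mark the letters TATAAA, found on both strands in overlapping positions, first base at -135 on the plus strand and at -137 on the minus strand.
Vtn: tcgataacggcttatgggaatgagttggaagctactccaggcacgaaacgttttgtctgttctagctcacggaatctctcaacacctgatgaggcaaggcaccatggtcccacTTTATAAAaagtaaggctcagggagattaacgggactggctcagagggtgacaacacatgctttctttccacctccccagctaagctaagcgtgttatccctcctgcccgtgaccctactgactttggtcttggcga
TATAAA on either strand occurs in 12.4% of 32851 promoters of the same length, so the match is a common one. Promoter sequences were found for 6 of the 9 genes.

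The receptors and partners of vitronectin did not pass the test along with it. Of 9 such genes (integrin chains, the urokinase system and its inhibitor), 0 were called in either direction by edgeR or DESeq2, with a median log2 fold change of -0.032. At an unadjusted p under 0.05 there was 1, *Itgb1*, the shared β1 integrin chain. *Itgb1* had 116 ± 4.21 CPM in WT and 125 ± 6.46 in *Rik*-null (log2 fold change 0.10, SE 0.041, edgeR adjusted p = 0.191). *Itgb8*, a chain that pairs with αv and binds vitronectin and latent TGF-β, had a log2 fold change of 0.14 (adjusted p = 0.358). Among 11 vascular basement membrane genes, 0 were called by edgeR (2 higher at an unadjusted p under 0.05, and 1 higher by DESeq2), and the median was 0.043. *Nid1*, the linker protein nidogen, came nearest, with 47.2 ± 6.68 CPM in WT and 58.5 ± 8.08 in *Rik*-null (log2 fold change 0.31, adjusted p = 0.0893).

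*Kcnj8* and *Abcc9*, neighbors on chromosome 6, encode the pore (Kir6.1) and the regulatory sulfonylurea receptor (SUR2) of the ATP-sensitive potassium channel of mural cells, which opens when ATP falls and relaxes the vessel. *Kcnj8* had 4.98 CPM in the lowest WT library, 5.71 at the median and 7.87 in the highest. In *Rik*-null it had 3.76 at the lowest, 4.31 at the median and 6.58 at the highest. The groups overlapped, although 6 of 8 *Rik*-null libraries lay below the lowest WT library. The means were 4.70 ± 1.02 CPM in *Rik*-null (n = 8) and 6.20 ± 1.22 in WT (n = 6), a ratio of 0.761 (95% interval 0.617 to 0.938; log2 fold change -0.39, SE 0.143). The unadjusted p was 0.0134 and the edgeR adjusted p 0.142, so the difference did not pass the test. The exact permutation test, two-sided and not adjusted over genes, gave p = 0.0253.

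The level of *Kcnj8* varied with the 2 sets of libraries. In set 1 it was 3.76 to 4.18 CPM in *Rik*-null and 4.98 to 5.86 in WT, and in set 2 it was 4.45 to 6.58 in *Rik*-null and 7.60 to 7.87 in WT. *Rik*-null libraries therefore stood below WT libraries within both sets, as 2.44% of all tested genes did. With the sets as a term, the log2 fold change was -0.48 and the edgeR adjusted p 0.00282, in a fit that called 4.56% of tested genes lower. Either set alone did not reach the threshold (adjusted p = 0.132 in set 1 and 0.0671 in set 2). With sex as a second term the log2 fold change was -0.35 (labelled sex, edgeR adjusted p = 0.370) or -0.33 (sex by RNA, adjusted p = 0.416). By sex as read from the RNA, the only female *Rik*-null library had 5.90 CPM, inside the female WT range of 5.34 to 7.87. Male *Rik*-null libraries had 3.76 to 6.58 and the 2 male WT libraries 4.98 and 7.60. Each library holds few *Kcnj8* fragments, 62 to 196 counts, which limits the precision.

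The bases before the *Kcnj8* start (chr6:142571615-142571864, minus strand) are printed as the second gene that the results turn on. Capitals mark its only match among the motifs searched, an E-box (CANNTG, a palindrome read on both strands), with the first base at -160.
Kcnj8: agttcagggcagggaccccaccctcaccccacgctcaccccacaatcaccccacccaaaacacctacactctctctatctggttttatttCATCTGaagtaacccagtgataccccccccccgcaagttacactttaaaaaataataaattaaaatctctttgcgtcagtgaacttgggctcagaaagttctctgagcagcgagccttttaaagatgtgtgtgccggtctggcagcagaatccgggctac
An E-box is present in 66.2% of promoters of this length.

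*Abcc9* had 10 CPM in the lowest WT library, 11.4 at the median and 11.9 in the highest, and 8.06, 10.4 and 11.6 in *Rik*-null. The groups overlapped, with 7 of 8 *Rik*-null libraries below the WT median. The log2 fold change was -0.14 (SE 0.079, 95% interval -0.31 to 0.03, edgeR adjusted p = 0.366). The channel genes that belong chiefly to neurons and endocrine cells, *Kcnj11* (Kir6.2) and *Abcc8* (SUR1), had log2 fold changes of -0.12 (adjusted p = 0.284) and -0.01 (adjusted p = 0.965). Thus none of the 4 subunit genes passed the test by edgeR or DESeq2 (1 lower at an unadjusted p under 0.05), and their median was -0.128.

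*Pdgfrb* on chromosome 18 encodes the receptor through which endothelial PDGF-B recruits pericytes, and mice with too little of it lack many brain pericytes. Its level was 27.0 CPM at the lowest, 28.6 at the median and 30.9 at the highest in WT, and 26.9, 29.4 and 33.4 in *Rik*-null. The 2 ranges nearly coincided. The log2 fold change was 0.03 (SE 0.052, edgeR adjusted p = 0.775), and its 95% interval of -0.08 to 0.14 was the second narrowest of the 8 genes, after that of *Vtn*. Of 24 genes of pericyte recruitment and vessel maturation, 2 were higher and 1 lower by edgeR and 4 higher and 1 lower by DESeq2, with 6 higher and 2 lower at an unadjusted p under 0.05 and a median of 0.039. Over all genes, edgeR called 1.12% higher and 2.2% lower. The ligand gene *Pdgfb* was among those that did not pass (log2 fold change -0.10, adjusted p = 0.422). The gene that fell was *Eng*, the TGF-β coreceptor endoglin of endothelial cells, from 41.4 ± 2.81 CPM in WT to 32.8 ± 2.33 in *Rik*-null without overlap (log2 fold change -0.34, SE 0.057, adjusted p = 0.00389). *Smad4*, the shared mediator of TGF-β signals in most cells, rose (log2 fold change 0.24, adjusted p = 0.0148), as did *Nrp1*, a semaphorin and VEGF coreceptor of neurons and vessels (0.24, adjusted p = 0.0419).

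*Rgs5* on chromosome 1, which encodes a protein that shortens G protein signals, is among the most abundant pericyte transcripts. Its level in WT was 97.2 CPM at the lowest, 103 at the median and 111 at the highest, and in *Rik*-null 85.5, 105 and 110.5. The medians lay close together, and 2 *Rik*-null libraries, 1 and 6, lay below every WT library. The log2 fold change was -0.02 (SE 0.060, 95% interval -0.15 to 0.10, edgeR adjusted p = 0.865). *Higd1b* on chromosome 11, which encodes a small mitochondrial protein of the hypoxia-inducible domain family, had 2.13, 2.54 and 2.75 CPM in WT and 2.08, 2.43 and 3.08 in *Rik*-null (lowest, median, highest). Its log2 fold change was -0.03 with an interval of -0.26 to 0.20 (adjusted p = 0.927).

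*Anpep* on chromosome 7 encodes aminopeptidase N (CD13), a surface peptidase of pericytes that also occurs on fibroblasts and myeloid cells. Its level ranged from 3.33 to 6.79 CPM in WT (median 5.20) and from 3.62 to 6.43 in *Rik*-null (median 5.00). Every *Rik*-null library fell inside the WT range. The log2 fold change was -0.03 (SE 0.144, 95% interval -0.33 to 0.28, edgeR adjusted p = 0.947). It changed sign or rounded to 0 in 10 of 30 alternative settings, in none of which it passed the test. Among 8 peptidase and angiotensin genes 0 were called by edgeR or DESeq2 (1 higher and 1 lower at an unadjusted p under 0.05), with a median of -0.005. The pericyte peptidase gene *Enpep* (aminopeptidase A) had 2.67 ± 0.524 CPM in WT and 3.37 ± 0.453 in *Rik*-null (log2 fold change 0.33, adjusted p = 0.184), and *Mas1*, an angiotensin-(1-7) receptor gene, had a log2 fold change of -0.24 (adjusted p = 0.166).

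*Acta2* on chromosome 19 encodes smooth muscle α-actin, the actin of arterial smooth muscle that most capillary pericytes hold little of. Its level was 4.75 CPM at the lowest, 8.24 at the median and 12.4 at the highest in WT, and 5.12, 6.23 and 12.5 in *Rik*-null. The ranges of the genotypes were almost the same. The log2 fold change was -0.16 (SE 0.231, 95% interval -0.65 to 0.32, edgeR adjusted p = 0.752), an interval that also holds a difference of the size seen for *Kcnj8*. The libraries fell into a high and a low range that cut across the genotypes. *Rik*-null 6, 7 and 8 and WT 4, 5 and 6 had 9.26 to 12.5 CPM, and the other 8 libraries 4.75 to 7.21. All 6 belong to set 1, which also holds *Rik*-null 1 and WT 1 from the low range. The same 6 libraries had the highest levels of *Myh11*, the myosin heavy chain of smooth muscle (5.63 to 7.02 CPM, against 1.53 to 2.92 in the others), and of the hemoglobin gene *Hbb-bs* (99.4 to 119, against 55.5 to 92.7). Other genes of the contractile list were mixed. *Mylk* (9.55 to 12.2 CPM, against 7.53 to 9.23) and *Mrtfb* (146 to 159.7, against 121 to 143) also set the 6 libraries apart. *Cnn1*, *Des*, *Lmod1*, *Tpm2* and *Myl9* overlapped between the same libraries (*Des*, for example, 3.40 to 4.14 CPM against 2.00 to 3.87). Some genes of other kinds set the 6 libraries apart as well. The endothelial marker *Slc2a1* had 107 to 130.2 CPM in them, against 69.3 to 83.3 in the others. The peptidase gene *Lnpep* had 105 to 125, against 71.4 to 92.3. Another endothelial marker, *Cldn5*, overlapped (36.9 to 65.5 against 55.3 to 78.6). The share of all genes that set these libraries apart was not counted. These libraries were picked out by their *Acta2* level, so the values are a description without a test. The part of arterial tissue or blood in the *Acta2* result was not tested.

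The bases before the *Acta2* start (chr19:34255374-34255623, minus strand) are shown because this gene had the largest spread among libraries of the 8 tested genes. Capitals mark 2 CArG boxes, elements of the kind that serum response factor is known to bind in this promoter, with first bases at -84 and -34. A CArG box was searched as CC and GG around 6 bases of which at least 5 are A or T, which reads the same on both strands.
Acta2: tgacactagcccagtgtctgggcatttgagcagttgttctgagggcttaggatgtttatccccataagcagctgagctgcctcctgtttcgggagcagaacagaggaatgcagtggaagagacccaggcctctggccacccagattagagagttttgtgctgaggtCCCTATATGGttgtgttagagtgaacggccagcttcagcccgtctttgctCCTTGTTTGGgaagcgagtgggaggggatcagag
At least 1 such box occurs in 8.59% of 32851 promoters of this length and 2 or more in 0.670%. *Srf*, which encodes the factor, had a log2 fold change of -0.13 (edgeR adjusted p = 0.302).

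*Tagln* on chromosome 9 encodes transgelin (SM22α), an actin-binding protein of smooth muscle. It had 57 counts over the 8 *Rik*-null libraries and 56 over the 6 WT libraries, 1 to 13 in each, and so was left out of the test. Its level was 0.219 CPM at the lowest, 0.389 at the median and 0.431 at the highest in WT, and 0.0597, 0.328 and 0.548 in *Rik*-null. A difference was not detectable at this depth: in a fit without the filter the log2 fold change was -0.09 (edgeR adjusted p = 0.933). The gene also shares 108 bases with *Pcsk7* on the opposite strand, which had 9090 counts, and 3627 bases with *Gm48529*, also on the opposite strand, which had 187 counts against 113 of *Tagln* over the series. It is not stated whether the counting used strand, so the few counts of *Tagln* are uncertain.

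The other contractile genes did not pass the test either. Of 18 genes listed, 16 were tested and 0 called by edgeR or DESeq2 (1 higher and 1 lower at an unadjusted p under 0.05), with a median of -0.033. *Smtn*, the smooth muscle protein smoothelin, had 10.4 ± 0.875 CPM in WT and 8.54 ± 1.23 in *Rik*-null (log2 fold change -0.29, edgeR adjusted p = 0.0967), and *Vcl*, the widely expressed vinculin of cell adhesions, went the other way with 17.9 ± 2.72 and 21.8 ± 3.93 (0.28, adjusted p = 0.197). Of 20 other pericyte markers, 0 were higher and 1 lower by edgeR and by DESeq2 (1 higher and 2 lower at an unadjusted p under 0.05). Their median was -0.004, with an equal 10 genes on either side of 0. The 1 that fell was *Foxf2*, a forkhead transcription factor gene that mouse brain pericytes need to form the barrier. *Foxf2* dropped from 5.90 ± 0.399 CPM in WT to 4.50 ± 0.516 in *Rik*-null (log2 fold change -0.39, SE 0.088, adjusted p = 0.0227), and its ranges of 5.16 to 6.27 and 3.96 to 5.28 overlapped slightly. *Slc6a20a*, a proline transporter gene, had 12.8 ± 2.84 and 17.0 ± 3.16 CPM (log2 fold change 0.40, adjusted p = 0.122), and *Art3* had a log2 fold change of -0.25 (adjusted p = 0.237).

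Levels of different genes are compared per length, in FPKM (fragments divided by gene length and by library depth), as the authors deposited them. *Vtn* stood highest in WT with 34.4 ± 1.54 FPKM, followed by *Rgs5* with 22.6 ± 1.21, *Pdgfrb* with 5.18 ± 0.246 and *Acta2* with 3.77 ± 1.26 (SD, n = 6). *Higd1b* (2.94 ± 0.273), *Kcnj8* (2.41 ± 0.472), *Abcc9* (1.31 ± 0.0948), *Anpep* (1.23 ± 0.286) and *Tagln* (0.176 ± 0.0437) came after them. The ranges over libraries of *Pdgfrb* and *Acta2*, of *Acta2* and *Higd1b*, of *Higd1b* and *Kcnj8*, and of *Abcc9* and *Anpep* overlapped in WT, so the order within these pairs is not set. In *Rik*-null the order differed only in that *Anpep* (1.23 ± 0.204 FPKM) and *Abcc9* (1.20 ± 0.135) changed places, 2 genes that overlapped in both genotypes. *Kcnj8* was 1.84 ± 0.399 FPKM in *Rik*-null, where its range reached that of *Anpep*, while in WT it stood clear of the next gene.

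The mural cell genes varied to unequal degrees among libraries of a genotype. Within WT the highest library had 2.61 times the CPM of the lowest for *Acta2*, 2.04 times for *Anpep* and 1.58 times for *Kcnj8*, but 1.14 times for *Pdgfrb* and for *Vtn* and 1.15 times for *Rgs5*. Within *Rik*-null the same ratios were 2.44 for *Acta2*, 1.78 for *Anpep* and 1.75 for *Kcnj8*, and 1.24 for *Pdgfrb*, 1.29 for *Rgs5* and 1.18 for *Vtn*. *Acta2* thus had the widest range of the 8 tested genes in each genotype and *Vtn* was among the narrowest. After the mean of each genotype was taken off, *Rgs5* and *Abcc9* moved most alike over the 14 libraries (Pearson r = 0.79 of log2 CPM), and *Anpep* and *Pdgfrb* each went with *Acta2* (r = 0.67 and 0.66). The r of *Rgs5* with *Abcc9* was 0.9 within *Rik*-null but 0.35 within WT. Other pairs were higher in WT, such as *Anpep* with *Acta2* (0.89, and 0.48 within *Rik*-null). *Kcnj8* ran against *Acta2* (r = -0.66), and with its partner *Abcc9* it shared almost nothing (r = 0.02). These values are a description over libraries that differ in depth, in sex and in set. The means of the 2 sets were not taken off, and the levels of *Kcnj8* and *Acta2* varied with the sets.

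**Figure D4:**
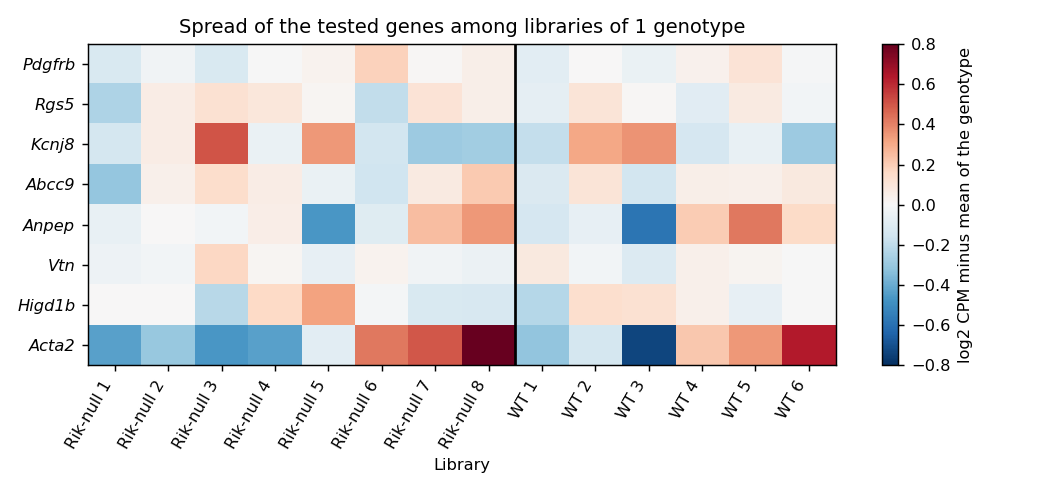
Difference between the log2 CPM of each tested gene in each library and the mean of its genotype (color scale from -0.8 to 0.8; the line divides the genotypes). *Acta2* is above its mean in *Rik*-null 6 to 8 and WT 4 to 6 and below it in the other 8 libraries, and *Kcnj8* is highest in *Rik*-null 3 and 5 and WT 2 and 3.

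Some markers of other cells at or near the vessel wall differed between the genotypes, and their lists are given here beside the *Vtn* and *Kcnj8* values. Of 20 brain endothelial markers edgeR called 3 lower and 0 higher, against 2.2% and 1.12% of all tested genes. DESeq2 called 5 lower and 0 higher. At an unadjusted p under 0.05, 10 were lower and 0 higher, against 10.3% and 8.34% of all tested genes. All 20 had a log2 fold change below 0, and the median was -0.238. Their summed level was 1201 to 1271 CPM in *Rik*-null and 1316 to 1389.9 in WT. A large part of it was 1 gene, *Bsg* (531 to 660.2 and 569 to 650.0 CPM, log2 fold change -0.022). *Mfsd2a*, the lipid transporter of the blood-brain barrier, fell (log2 fold change -0.27, edgeR adjusted p = 0.00404), as did *Cdh5*, the endothelial cadherin (-0.32, adjusted p = 0.0196), and *Egfl7*, a secreted endothelial protein (-0.28, adjusted p = 0.0315). The 8 mural cell genes, with a median of -0.027, and the 20 other pericyte markers, with -0.004, stood closer to the median of all genes than did the endothelial list.

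Fibroblasts of the meninges and of larger vessels lie next to mural cells. Of 15 of their markers edgeR called 4 higher and 0 lower, and DESeq2 5 and 0. At an unadjusted p under 0.05, 10 were higher and 0 lower, against 8.34% and 10.3% of all tested genes. The median was 0.329, and the summed level was 267 to 361 CPM in *Rik*-null and 211 to 305 in WT. *Dcn*, whose product decorin binds collagen, had 16.8 ± 1.40 CPM in WT and rose to 25.2 ± 3.23 in *Rik*-null (log2 fold change 0.59, edgeR adjusted p = 0.00117). *Slc22a6*, an organic anion transporter gene, rose by 0.56 on the log2 scale (adjusted p = 0.00780). Of 10 choroid plexus markers 4 rose and 0 fell by edgeR, and 5 and 0 by DESeq2, with 7 higher and 0 lower at an unadjusted p under 0.05. Among those called were *Folr1*, a folate receptor gene (0.75, adjusted p = 0.00399), and *Ttr*, the thyroid hormone carrier transthyretin (0.37, adjusted p = 0.0362). The median was 0.371. The summed level was 502 to 638 CPM in *Rik*-null and 353 to 531 in WT, and most of it was *Ttr* (446 to 567 and 307 to 469.5). The part of these cells in the *Vtn* difference was not tested. Of the 9 genes that the study itself used as pericyte markers, edgeR called 2 higher, *Vtn* and *Dcn*, and the latter is counted among the fibroblast markers here. DESeq2 called 3 higher, and 6 were higher at an unadjusted p under 0.05. The study compared these markers at a later age, with a further threshold on the fold change, and reported no significant difference. Its result and these calls are therefore not alike in age or threshold. The list of 9 is the study's own and shares *Vtn* with the genes described, so its count adds no independent evidence. Outside the mural cell genes, the gene lists held 16 genes that edgeR called with genotype alone. With the labelled sex as a further term 5 of the 16 passed (*Dcn*, *Folr1*, *Foxf2*, *Gfap* and *Sostdc1*), and with sex by RNA also 5, with *Eng* in place of *Foxf2*. With the 2 sets of libraries as a term all 16 passed, and each kept its direction in these 3 fits.

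**Figure D5:**
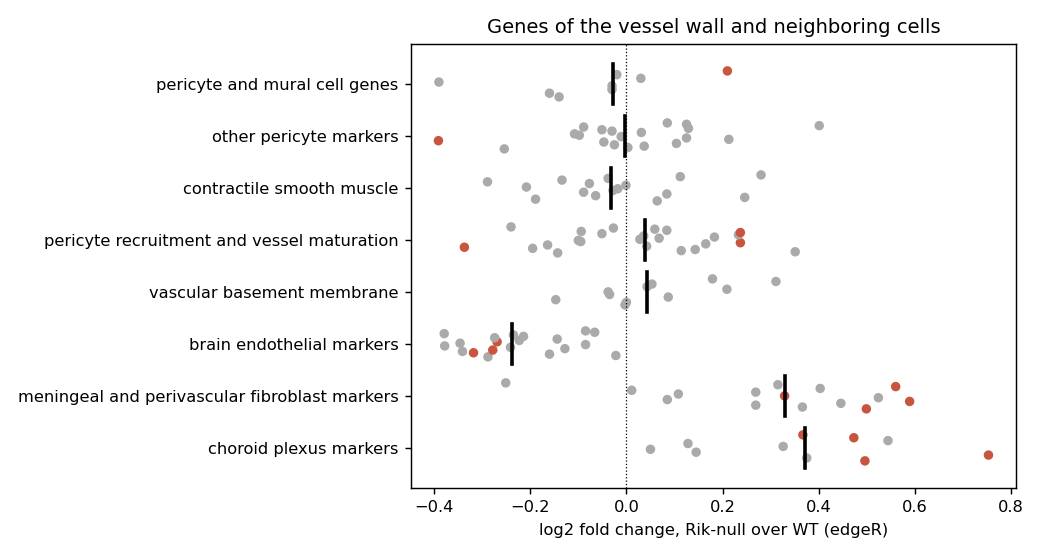
Log2 fold change, *Rik*-null over WT, of each tested gene (points, red for an adjusted p of at most 0.05) in the 9 genes described and in lists of neighboring cells and functions, with the median of each list as a black bar. The mural cell and pericyte lists center near 0 (-0.027 and -0.004), all 20 endothelial markers lie below 0 and the fibroblast and choroid plexus medians are 0.329 and 0.371.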

How the data were processed

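Counts of RNA-seq reads per gene were analyzed in the 14 libraries as the authors deposited them, without normalization; library preparation, sequencing and the standard analysis were done for the authors by a service laboratory. How reads were aligned and counted, with which annotation, and whether by strand is not given in the sources used. The labels name the build mm10, but of 52073 genes found in GENCODE M21 only 1485 share their start with the table, so no positions were taken from it. Deposited FPKM values were used for levels between genes, and the deposited gene lengths only to describe them. The deposited signal columns (mean normalized counts per genotype), log2 fold changes and p-values are the comparison of the authors and were not used.

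Genotypes were compared by the quasi-likelihood test of edgeR 4.0.16 (R 4.3.3), with genotype alone as a term after filtering by genotype and TMM scaling, with Benjamini-Hochberg adjusted p over all 18170 tested genes and a threshold of 0.05. CPM values were normalized with the same factors. The standard error is the fold change divided by the square root of the F statistic. Log2 CPM for correlations and exact permutation tests had a prior count of 2. Alternatives used DESeq2 1.42.0 and limma 3.58.1 (log2 of FPKM plus 1 or 0.1), and also other size factors, no filter, 10 counts in each library, sex or the 2 sets of libraries as a term, a replicate block, subsets of libraries and each library left out. Sex and set terms for list genes were added after their values were seen. Promoters were searched on both strands for 4 motifs (TATA box, forkhead core TAAACA, E-box and CArG box). The members and the gene lists were chosen with earlier results of these data known. Named were the 9 genes, up to 3 genes with the smallest p in each list, all channel subunits, and for each member the 2 genes whose deviations were most alike (*Pdgfb* and *Srf*, as ligand and factor, were added after their values were seen). *Bsg* and the genes set beside *Acta2* in the libraries with its highest levels were named outside this rule, some after their values were seen. Each pup gave 1 library. Replicate numbers do not pair the pups by the labels.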

Additional observations from a re-analysis of the deposited data

Results flagged for a closer look

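*Vtn* in the library *Rik*-null 3 had 91.1 CPM, apart from the other 7 *Rik*-null libraries at 77.5 to 82.8. The gap to its nearest neighbor was 0.607 of the group's range, above Dixon's 95% critical value for 8 samples. It was the only library to stand apart among 16 groups examined (8 genes in 2 genotypes), and chance alone does so in about 1 in 20 groups. Without this library the log2 fold change of *Vtn* was 0.18 and the edgeR adjusted p 0.0226.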

How the results depend on the processing

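*Vtn* kept its direction in all 30 alternatives (0.15 to 0.30 on the log2 scale). It kept its call in 25 of the 29 that give an adjusted p. The remaining alternative is the exact permutation test, whose p is unadjusted. The number of mural cell genes called higher was 0 in place of 1 with labelled sex as a term, with sex by RNA as a term, in libraries labelled male alone (*Vtn* 0.19, edgeR adjusted p = 0.414) and within set 1 alone. The libraries labelled male held only 2 WT libraries, WT 1 and WT 2, and by its RNA WT 1 was female. The number called lower was 1 in place of 0, *Kcnj8*, with the 2 sets as a term. Leaving out each library in turn gave 1 to 1 called higher and 0 to 0 called lower, with *Vtn* at 0.18 to 0.22 (adjusted p 0.0142 to 0.0311) and *Kcnj8* at -0.47 to -0.32 (0.0794 to 0.251). *Pdgfrb*, *Kcnj8*, *Abcc9* and *Vtn* kept their sign throughout. *Rgs5*, *Anpep*, *Higd1b* and *Acta2*, never called, changed it or rounded to 0 in 3, 10, 7 and 1 of 30 alternatives. The fits within set 1 and within set 2 were added after the data were seen. The counts over all genes moved more, from 203 higher and 399 lower to 525 and 600 by DESeq2, 88 higher without the filter, 43 and 110 with labelled sex, 21 and 124 with sex by RNA, 693 and 829 with the 2 sets, 1 and 6 in libraries labelled male, 43 and 125 without WT 1 and WT 6 and 4 and 42 within set 1. With each library left out they were 78 (without WT 1) to 340 (without *Rik*-null 1) higher and 203 (without WT 6) to 480 (without *Rik*-null 1) lower. The causes were not tested.

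Replicate numbers 1 to 6 occur in both genotypes, but the correlation of deviations between same-numbered libraries was 0.195, 0.299, 0.316, -0.337, -0.11 and 0.215, and 1 of 6 numbers was matched best with itself, so the samples share only a number. With the replicate block, 264 genes were higher and 499 lower, *Vtn* stood at 0.22 (edgeR adjusted p = 0.0415), *Kcnj8* at -0.31 (0.102) and *Acta2* at -0.41 (0.0637), with 1 mural cell gene higher and 0 lower.

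Depth limits *Tagln*, with 1 to 13 counts in each library, most, and then *Higd1b* with 36 to 78.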

Other observations

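Over 15807 genes, those whose levels went most closely with each mural cell gene among libraries of a genotype were seldom genes of the vessel wall. The measure is Pearson r of log2 CPM after the mean of each genotype, but not of each set, was taken off. It covers 14 libraries that differ in depth, in sex and in set, and it is a description without a test. *Rgs5* went most closely with *Egfr*, the EGF receptor gene, and *Smc4*, a condensin subunit gene (both r = 0.96). *Abcc9* went with *Cyp1b1*, a cytochrome P450 gene that brain pericytes also express (r = 0.97), and *Akap6* (r = 0.94). For *Kcnj8* the closest gene was *Oprl1*, the nociceptin receptor gene of neurons (r = 0.95), and then *Col22a1* (r = 0.91). *Acta2* went with *Ppargc1b*, a transcriptional coactivator gene (r = 0.98), and *Tecpr2* (r = 0.97), and *Anpep* with *Cnot6l* (r = 0.94) and *Gm41505* (r = 0.92). *Pdgfrb* followed *Helb* (r = 0.91) and the gene ENSMUSG00000120880, which the table lists by its identifier alone (r = 0.89). *Higd1b* followed *Hyi* (r = 0.91) and *Arfgap3* (r = 0.90). *Vtn* had the loosest companions, *Alox5ap* (r = 0.81), which acts in leukotriene synthesis in myeloid cells, and *Catsperz* (r = 0.75).

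Of 11 microglia and macrophage markers and 5 blood markers, 0 were called by edgeR, with medians of 0.107 and 0.149. DESeq2 called 1 higher in the former list and 0 in the latter, where 0 were also under an unadjusted p of 0.05. At an unadjusted p under 0.05, *C1qc*, *Mrc1* and *P2ry12* of the microglia and macrophage list were higher, the largest being *Mrc1*, a marker of macrophages that sit along vessels beside mural cells (2.72 ± 0.639 CPM in WT and 3.85 ± 1.10 in *Rik*-null, edgeR adjusted p = 0.160). Of 12 markers of neurons, astrocytes and oligodendrocytes 1 was higher, *Gfap*, the filament of astrocytes (252 ± 12.8 and 319.8 ± 26.3 CPM; log2 fold change 0.34, adjusted p = 0.00289), and the median was -0.007.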
